A study of Mus musculus with 4 samples.

Results

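The genes described here are the 4 mouse receptors for the constant part of immunoglobulin G, Fcgr1, Fcgr2b, Fcgr3 and Fcgr4, and Fcer1g, which encodes the signalling chain that the activating receptors share. They were chosen by gene symbol, at a time when their log2 differences in the galectin-1 comparison were known, and all 5 were found among the 23284 symbols of the deposited FPKM files (FPKM, fragment numbers scaled to transcript length and library size). The samples were primary macrophages grown from the bone marrow of wild-type mice. Every culture was first stimulated with lipopolysaccharide (LPS), a bacterial cell wall component, at 1 µg/ml for 1 h. The control group then received phosphate-buffered saline (vehicle) and the other group recombinant mouse galectin-1, a lectin that binds galactose-containing sugar chains, for 24 h. Each group had 2 libraries, and cells without LPS were not analysed here. The sources used here do not give the strain, sex and age of the mice or the dose of galectin-1. Nor do they say whether each library had its own culture or animal. The p-values therefore cover the spread among these libraries alone, and that spread may be technical. The study asked how galectin-1 alters the character of macrophages.

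Fc gamma receptors let macrophages bind immune complexes and antibody-coated particles. The activating receptors Fcgr1, Fcgr3 and Fcgr4 signal through the Fc gamma chain, whose tyrosine motif (ITAM) is phosphorylated by Src family kinases and recruits the kinase Syk, leading to engulfment, oxidant production and cytokine release. Fcgr2b carries an inhibitory motif (ITIM) in its own tail that recruits phosphatases, above all Inpp5d (SHIP), and raises the threshold for activation. The balance between both kinds on the same cell is widely used to describe how strongly a macrophage responds to immune complexes. Interferon gamma and complement fragment C5a are known to raise activating receptors, and interleukin 4 is known to raise Fcgr2b, in mouse macrophages.

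Fcgr2b, Fcgr4, Fcgr3 and Fcer1g lie in that order on chromosome 1, and Fcgr1 lies on chromosome 3. In RefSeq on GRCm38.p6 (mm10, the build in the submitters' processing notes), Fcgr2b spans chr1:170960558-170976071, Fcgr4 chr1:171018926-171029761, Fcgr3 chr1:171051169-171065915, Fcer1g chr1:171229572-171234349 and Fcgr1 chr3:96282909-96293969. Fcgr2b and Fcgr4 are 42.9 kb apart, Fcgr4 and Fcgr3 21.4 kb, and Fcgr3 and Fcer1g 163.7 kb. The 250 bases before the RefSeq start of each of the 4 receptors are shown because these genes differed in opposite directions between the groups, Fcgr1 and Fcgr3 one way and Fcgr2b and Fcgr4 the other. They are written 5′ to 3′ on the gene's own strand. Capitals mark matches, on either strand, to a 10-base interferon-stimulated response element or to GAGGAA (the core bound by Spi1, the PU.1 factor of myeloid cells). None of these matches overlap.
Fcgr1, chr3:96293970-96294219, minus strand: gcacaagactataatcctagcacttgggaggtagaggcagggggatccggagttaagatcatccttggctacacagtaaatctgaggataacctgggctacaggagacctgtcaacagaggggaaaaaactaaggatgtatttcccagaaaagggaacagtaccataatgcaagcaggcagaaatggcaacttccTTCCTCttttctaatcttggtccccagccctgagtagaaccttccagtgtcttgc
Fcgr3, chr1:171059404-171059653, minus strand: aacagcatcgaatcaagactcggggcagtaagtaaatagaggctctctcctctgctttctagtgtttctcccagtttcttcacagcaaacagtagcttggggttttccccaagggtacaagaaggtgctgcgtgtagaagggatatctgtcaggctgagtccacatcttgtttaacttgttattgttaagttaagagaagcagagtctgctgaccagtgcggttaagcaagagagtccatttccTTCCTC
Fcgr4, chr1:171018676-171018925, plus strand: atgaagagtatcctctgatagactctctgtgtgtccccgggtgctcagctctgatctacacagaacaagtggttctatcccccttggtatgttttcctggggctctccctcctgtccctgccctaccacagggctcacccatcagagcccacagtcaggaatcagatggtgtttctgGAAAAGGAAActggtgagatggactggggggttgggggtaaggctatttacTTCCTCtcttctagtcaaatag
Fcgr2b, chr1:170976072-170976321, minus strand: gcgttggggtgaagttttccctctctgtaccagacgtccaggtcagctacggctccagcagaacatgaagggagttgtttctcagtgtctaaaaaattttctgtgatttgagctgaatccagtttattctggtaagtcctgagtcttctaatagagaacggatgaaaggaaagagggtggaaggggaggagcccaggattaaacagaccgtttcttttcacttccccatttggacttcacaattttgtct

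The interferon-stimulated response element was found in the window of Fcgr4 alone among the 5 genes, 73 to 64 bases before the start, and 2.97% of 32817 RefSeq promoter windows of the same length hold it. GAGGAA was found once each in the windows of Fcgr1, Fcgr3 and Fcgr4, against 23.3% of all windows. The windows of Fcgr2b and Fcer1g held neither motif. The Fcgr3 start used here lies inside the RefSeq span of the gene, and another is listed 9 bases further along, whose window holds the same GAGGAA match. These are matches of letters, and binding was not measured.

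Fcgr2b and Fcgr3 are close relatives, which bears on how their reads could be told apart. In the longest coding transcripts of GENCODE M21, 87.1% of 785 aligned coding bases are identical between them, against 64.0% to 68.7% for the other 5 pairs of receptors. The longest stretch without a difference has 129 bases, coding bases 278 to 406 of Fcgr2b and 263 to 391 of Fcgr3, counted from the first coding base. It encodes part of the extracellular immunoglobulin-like domains and is shown because a read inside it fits both genes.
Fcgr2b and Fcgr3, shared coding stretch: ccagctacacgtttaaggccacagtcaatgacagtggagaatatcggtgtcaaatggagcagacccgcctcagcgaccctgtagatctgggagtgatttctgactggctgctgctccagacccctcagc
Of the 50-base windows in the coding sequence, 166 of 974 in Fcgr2b (17.0%) and 166 of 755 in Fcgr3 (22.0%) occur in the other gene. Transcripts of Fcgr1, Fcgr4 and Fcer1g had no 50-base window in any other gene of that annotation. Over the whole transcript of Fcgr2b, 397 of 3495 windows (11.4%) occur in other genes, which are Fcgr3 and many more, such as Cdk6 and Pik3r1. For Fcgr3, 166 of 1298 windows (12.8%) occur elsewhere, in Fcgr2b alone. The sources used here give neither the read length nor the treatment of reads that fit several places. The division of reads between Fcgr2b and Fcgr3, and between Fcgr2b and those other genes, is therefore uncertain.

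All 5 transcripts were abundant, and they ranged from Fcer1g down to Fcgr2b in both groups. Fcer1g had 1476 and 1483 FPKM with vehicle and 1487 and 1456 with galectin-1, which placed it at rank 39 to 44 among the 9380 genes whose mean reached 1 FPKM. The receptors themselves held ranks 250 to 496. With vehicle the order of levels was Fcgr4, Fcgr3, Fcgr1, Fcgr2b, and the ranges of Fcgr4 and Fcgr3 overlapped, so these neighbours did not differ beyond their spread. With galectin-1 the order was Fcgr3, Fcgr4, Fcgr1, Fcgr2b. There Fcgr4 and Fcgr1 lay 5.24 FPKM apart at their nearest, less than the 9.67 FPKM between the Fcgr4 libraries. The remaining neighbours in both orders were separated by 45.0 FPKM or more.

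Differences between the groups are given for these 5 genes as a description, because the genes were chosen with results of this comparison known, and no p-value that limma gave them is read as a test. Fcgr2b, the inhibitory receptor, had 225 and 228 FPKM with vehicle and 195 and 185 FPKM with galectin-1. Both galectin-1 libraries were below both vehicle libraries, and the means of 227 ± 2.14 and 190 ± 7.28 FPKM (SD, n = 2) differed by -16.2%. On the log2(FPKM + 1) scale the difference, galectin-1 minus vehicle, was -0.25 with a standard error of 0.04 (limma fit across all tested genes). A larger absolute difference was seen for 10.4% of the tested genes.

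Fcgr1, the high-affinity activating receptor known as CD64, had 299.7 and 319 FPKM with vehicle and 336 and 338 FPKM with galectin-1. The galectin-1 libraries were nearly equal and above both vehicle libraries, with means of 309 ± 13.5 and 337 ± 1.64 FPKM (SD, n = 2), 8.87% higher. The log2 difference was 0.12 with a standard error of 0.04. It was 0.08 without vehicle replicate 1, under the main value by more than 1.5 times, and 0.17 without vehicle replicate 2.

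Fcgr3, the low-affinity activating receptor, had 373 and 366 FPKM with vehicle and 404 and 398 FPKM with galectin-1. Again the galectin-1 libraries were the higher ones, with means of 369.5 ± 4.89 and 401 ± 4.52 FPKM (SD, n = 2), 8.50% higher and 0.12 on the log2 scale (standard error 0.03). After quantile normalization, which forces the libraries to 1 distribution, the log2 difference of Fcgr3 was 0.07.

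Fcgr4, an activating receptor of mouse myeloid cells, differed the other way. It had 369.6 and 394 FPKM with vehicle and 343 and 353 FPKM with galectin-1. The groups did not overlap, and the means of 382 ± 17.3 and 348 ± 6.84 FPKM (SD, n = 2) differed by -8.88%. The log2 difference was -0.13 with a standard error of 0.04, and it was -0.09 without vehicle replicate 2, whose level was the highest.

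Fcer1g did not separate the groups: the galectin-1 libraries lay on either side of the vehicle libraries, with means of 1480 ± 4.99 and 1472 ± 22.2 FPKM (SD, n = 2). The log2 difference was -0.01 with a standard error of 0.03, and its sign turned after quantile normalization (0.01) and without galectin-1 replicate 2 (0.01).

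**Figure D1:**
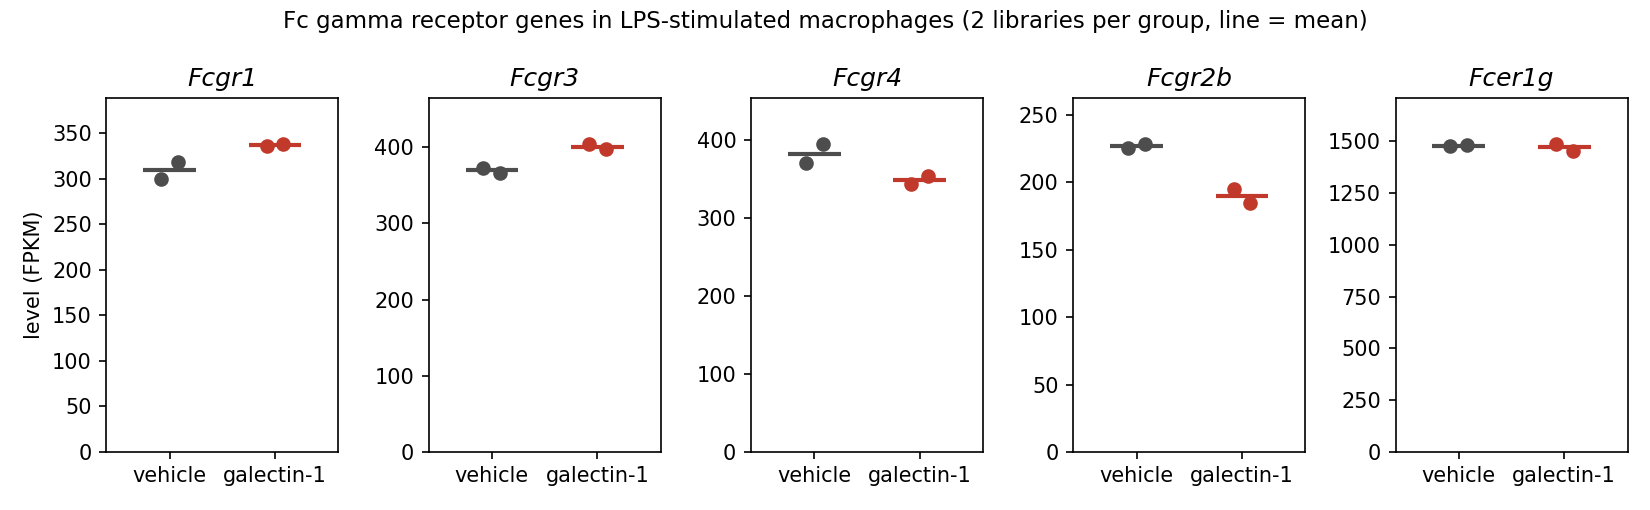
Level of each gene in FPKM (vertical axes, 1 scale per gene, all from 0) in the 2 vehicle and 2 galectin-1 libraries; points are libraries and lines are group means. Fcgr1 and Fcgr3 were higher and Fcgr4 and Fcgr2b lower in both galectin-1 libraries, while the Fcer1g groups overlapped.

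Of the 5 genes, 1 had an adjusted p under 0.05 in limma (Benjamini-Hochberg over all tested genes). This was Fcgr2b, on the lower side, where 0.586% of all tested genes were called lower, 0.608% higher and 1.19% in either direction. That adjusted p was 0.146 to 0.222 in the 4 limma fits that left out 1 library each. Groups without overlap were found for 4 of the 5, 2 higher and 2 lower, against 55.4% of all tested genes (29.1% higher and 26.2% lower). As the genes were chosen with this comparison in view, nothing is read from either count. The median log2 difference of the 5 was -0.01, beside 0.00 over all 9380 tested genes, and the median absolute difference was 0.12, beside 0.09.

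Ratios within a library do not depend on scaling between libraries, and levels in FPKM are per transcript length, so the receptors can be set against each other. The 4 receptors summed to 1268 and 1307 FPKM with vehicle and to 1278 and 1273 FPKM with galectin-1, so that the galectin-1 sums lay between the vehicle sums. Within that sum the share of Fcgr2b was 17.8% and 17.5% with vehicle and 15.3% and 14.5% with galectin-1. Fcgr1 made up 24.0% ± 0.526 with vehicle and 26.4% ± 0.197 with galectin-1, and Fcgr3 made up 28.7% ± 1.01 and 31.4% ± 0.272 (SD, n = 2). Fcgr4 had a share of 29.7% ± 0.696 and 27.3% ± 0.607. The mixture therefore held more Fcgr1 and Fcgr3 and less Fcgr4 and Fcgr2b in both galectin-1 libraries, at a like total.

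The ratio of activating receptors (Fcgr1, Fcgr3 and Fcgr4 summed) to Fcgr2b was 4.62 and 4.72 in the vehicle libraries and 5.54 and 5.88 in the galectin-1 libraries. The group means were 4.67 ± 0.0700 and 5.71 ± 0.239 (SD, n = 2), a log2 difference of 0.29, which ranged from 0.25 to 0.33 when 1 library was left out. The summed activating level was 1061 ± 25.9 FPKM with vehicle and 1086 ± 3.96 FPKM with galectin-1, while the level of Fcgr2b was lower, so the ratio differed mainly through its denominator. By receptor, the ratio to Fcgr2b went from 1.36 ± 0.0466 to 1.77 ± 0.0764 for Fcgr1 and from 1.63 ± 0.0369 to 2.11 ± 0.0569 for Fcgr3. For Fcgr4 it went from 1.68 ± 0.0603 to 1.83 ± 0.106 (SD, n = 2). Fcgr4, lower itself, thus had the smallest difference of the 3.

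Among the activating receptors the ratio of Fcgr1 to Fcgr4 was 0.811 and 0.809 with vehicle and 0.978 and 0.958 with galectin-1. Replicates agreed closely in this ratio, which involves neither Fcgr2b nor Fcgr3. The ratio of Fcgr3 to Fcgr4 was 1.01 and 0.929 with vehicle and 1.18 and 1.13 with galectin-1. The transcript of the shared chain exceeded that of all activating receptors together, with ratios of Fcer1g to their sum of 1.40 ± 0.0294 with vehicle and 1.36 ± 0.0254 with galectin-1 (SD, n = 2). The single libraries had 1.42 and 1.37 with vehicle and 1.37 and 1.34 with galectin-1. Both galectin-1 values were lower, but the nearest pair of libraries was almost equal.

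Fcgr2b and Fcgr3, the closely related pair, summed to 598 and 594 FPKM with vehicle and to 599 and 583 FPKM with galectin-1. Their sum thus had overlapping groups, with a log2 difference of -0.01, although each gene differed. FPKM is per transcript length, and the longest coding transcripts have 3544 bases for Fcgr2b and 1347 for Fcgr3. Reads moved from 1 gene to the other, with nothing else changed, would therefore not keep this sum. The sum was not used to judge such a move. Whether reads were divided differently between Fcgr2b and Fcgr3 was not tested. The lower Fcgr4 and the higher Fcgr1, whose transcripts share no 50-base window with other genes, do not involve that pair.

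**Figure D2:**
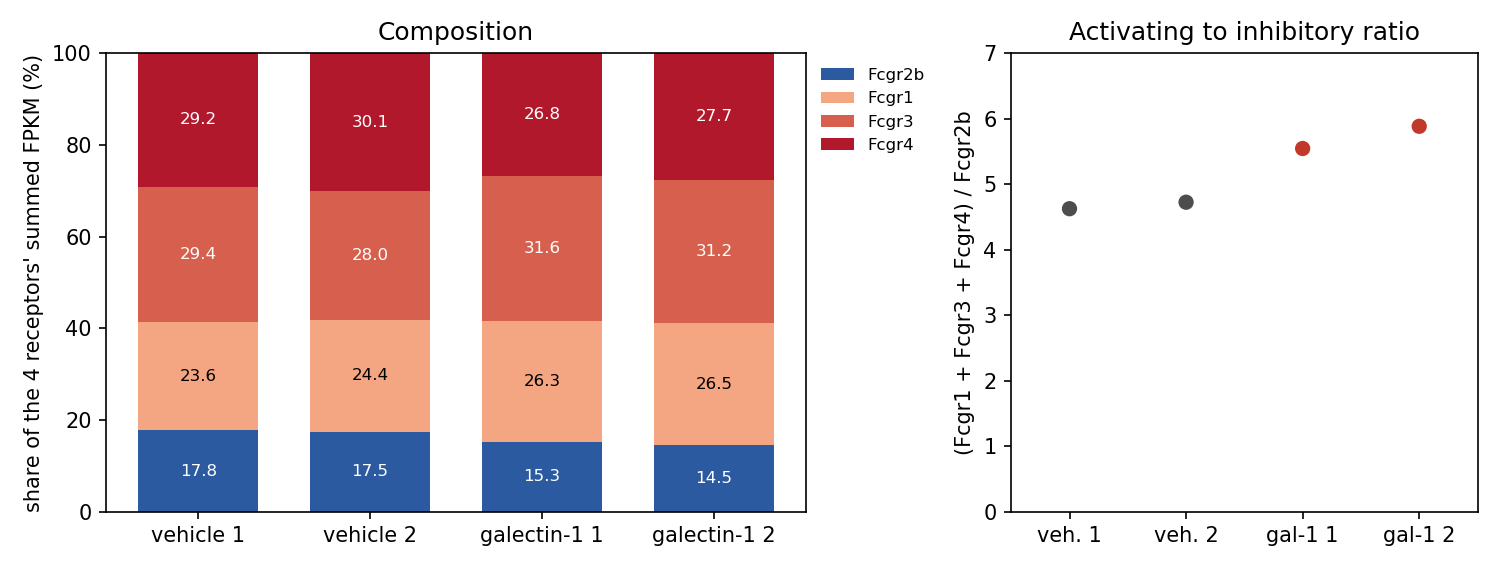
Left, share of each receptor in the summed FPKM of the 4 receptors in each library (%, stacked bars); right, ratio of summed activating receptors to Fcgr2b in each library (axis from 0). The Fcgr2b share was 17.8% and 17.5% with vehicle and 15.3% and 14.5% with galectin-1, and the ratio was 4.62 and 4.72 against 5.54 and 5.88.

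The cells carried macrophage markers, most of whose differences had the sign of those of Fcgr1 and Fcgr3. All 8 listed macrophage markers were tested, 7 differences were positive and none passed in limma, with 6 at an unadjusted p under 0.05, where 2172 of the 9380 tested genes (23.2%) were. Mertk, which is among these 6, had the negative difference (-0.17). The median log2 difference of the 8 was 0.11, near the values of Fcgr1 and Fcgr3 and opposite in sign to those of Fcgr2b and Fcgr4. Their summed level was 9029 to 9052 FPKM with vehicle and 9789 to 9807 FPKM with galectin-1. Most of it was Lyz2, with 5761 and 5642 FPKM with vehicle and 6269 and 6223 FPKM with galectin-1. Other cells that carry Fc receptors were scarce: B cell markers summed to 2.96 to 3.45 FPKM with vehicle and 2.74 to 3.60 with galectin-1, nearly all from Cd79b. Mast cell and basophil markers summed to 0.899 to 1.17 FPKM in all 4 libraries, with Ms4a2, Fcer1a, Mcpt8 and Tpsb2 at 0. Of the neutrophil markers 7 of 8 were found, summing to 1.34 to 2.92 FPKM with vehicle and 1.38 to 2.31 with galectin-1, with Elane, Ltf and Retnlg at 0. T and NK cell markers reached 0.142 FPKM at most, and dendritic cell markers 1.97 to 2.49 FPKM over the 4 libraries. Fibroblast markers summed to 8.37 to 8.85 FPKM with vehicle and 9.58 to 11.1 with galectin-1, and all 3 tested differences were positive without passing. The part of the macrophage or fibroblast markers in these results was not tested, and in bulk RNA fewer cells and less RNA per cell cannot be told apart.

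The other genes of the pathway were taken from 7 lists with 134 genes, of which 117 were tested. These lists were also chosen with earlier results of these data known, so nothing is read from the shares below. In limma 1 rose and 2 fell (2.56%, beside 1.19% of all tested genes), and 38 of the 117 had an unadjusted p under 0.05, beside 23.2% of all tested genes. The 3 were Tarm1, Fgr and Il10. None of the 117 passed in the smaller fits without 1 of the 4 libraries, where the log2 differences of the 3 stayed near their values over all libraries (-0.67 to -0.63 for Tarm1, -0.54 to -0.42 for Fgr and 0.32 to 0.38 for Il10). All 3 calls were also lost without the filter on low values or without limma's trend, and rescaling to TPM left 2, both lower.

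Among other Fc receptors and Fc receptor-like genes, 6 of 13 were tested and none passed in limma. Of the 6, 2 had an unadjusted p under 0.05, beside 23.2% of all tested genes. Fcgrt, the neonatal Fc receptor that recycles immunoglobulin G, had 38.4 and 37.7 FPKM with vehicle and 43.5 and 42.1 with galectin-1 (log2 difference 0.17, limma adjusted p = 0.101). Trim21, the cytosolic antibody receptor, had 169 and 173 against 159 and 160.0 FPKM (-0.10, limma adjusted p = 0.147). The high-affinity receptor of immunoglobulin E needs Fcer1a and Ms4a2 beside Fcer1g, and both were listed at 0 in every library.

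Fcer1g also serves receptors that do not bind antibodies, and of these and related adaptor chains 8 of 14 were tested. In limma 3 of the 8 had an unadjusted p under 0.05, beside 23.2% of all tested genes. Tarm1, an activating receptor of myeloid cells that pairs with the Fc gamma chain, fell from 39.3 and 38.0 to 24.1 and 24.6 FPKM (log2 difference -0.65, standard error 0.04, limma adjusted p = 0.0116). Leaving out 1 library ended that call, with adjusted p from 0.0563 to 0.0696 in limma. Clec4d and Clec4e, lectin receptors of mycobacterial glycolipids that use the same chain, had log2 differences of 0.20 and 0.13 with limma adjusted p of 0.0996 and 0.106. Clec4e had 561 and 576 FPKM with vehicle and 638 and 609 FPKM with galectin-1, a level above that of each Fc gamma receptor. Pira6, a paired immunoglobulin-like receptor, had -0.11 (limma adjusted p = 0.541) and belongs to a family of close relatives whose reads may be divided between them.

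Of 28 tested genes that carry the activating signal, 1 fell and none rose, and the median log2 difference was 0.02. In limma 8 of the 28 had an unadjusted p under 0.05, beside 23.2% of all tested genes. Fgr, a Src family kinase of myeloid cells, fell from 27.4 and 27.3 to 20.2 and 18.5 FPKM (-0.48, standard error 0.06, limma adjusted p = 0.0371), and the adjusted p was 0.120 to 0.208 when 1 library was left out. The adaptor Bcl10 (0.20), the exchange factor Vav1 (0.19) and the Ras activator Sos1 (0.18) had limma adjusted p of 0.0638, 0.0749 and 0.140. Syk, named here after its values were seen because it is the central kinase, had 161 and 164 FPKM with vehicle and 166 and 171 FPKM with galectin-1 (0.05, limma adjusted p = 0.404).

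On the inhibitory side 13 of 14 genes were tested and none passed in limma, with 7 of the 13 at an unadjusted p under 0.05, beside 23.2% of all tested genes, and a median log2 difference of 0.09. Inppl1 (SHIP2), a lipid phosphatase, had 73.4 and 74.7 against 83.0 and 84.7 FPKM (0.18, limma adjusted p = 0.0708). Dok3, an adaptor that restrains Syk signalling, had 8.33 and 8.54 against 6.89 and 6.90 FPKM (-0.26, limma adjusted p = 0.0986). Inpp5d, the phosphatase that Fcgr2b recruits, also named after its values were seen, had 7.38 and 7.28 against 8.13 and 8.89 FPKM (0.19, limma adjusted p = 0.179).

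Downstream, none of 30 tested genes of engulfment and actin passed in limma, and the median log2 difference was 0.03. Of the 30, 7 had an unadjusted p under 0.05, near the 23.2% of all tested genes. Crk, an adaptor of Rac activation, had a log2 difference of 0.19 (limma adjusted p = 0.0690), and Asap1, which inactivates Arf family GTPases at actin structures, had -0.23 (limma adjusted p = 0.107). None of 6 NADPH oxidase genes passed, with 2 at an unadjusted p under 0.05, beside the same 23.2%. These were Ncf1, the organizer subunit p47phox, with 110.0 and 109.8 against 97.0 and 96.2 FPKM (-0.18, limma adjusted p = 0.0589), and Nox1, a homologue of the catalytic subunit, with -0.33 (limma adjusted p = 0.0690).

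Of 26 tested receptors and factors known to set Fc gamma receptor levels, 1 rose and none fell in limma. Of the 26, 9 had an unadjusted p under 0.05, beside 23.2% of all tested genes. Differences were positive for 17 of the 26 and negative for 9, with a median log2 difference of 0.05. Il10, an anti-inflammatory cytokine, rose from 62.3 and 65.1 to 79.6 and 83.2 FPKM (0.35, standard error 0.04, limma adjusted p = 0.0374), with adjusted p of 0.145 to 0.221 when 1 library was left out and 0.0601 after rescaling to TPM, which ended the call. The kinase Jak1, which serves interferon and interleukin 10 receptors, had 0.21 (limma adjusted p = 0.0581), the growth factor receptor Csf1r 0.15 (0.0614) and the LPS receptor Tlr4 0.19 (0.105).

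**Figure D3:**
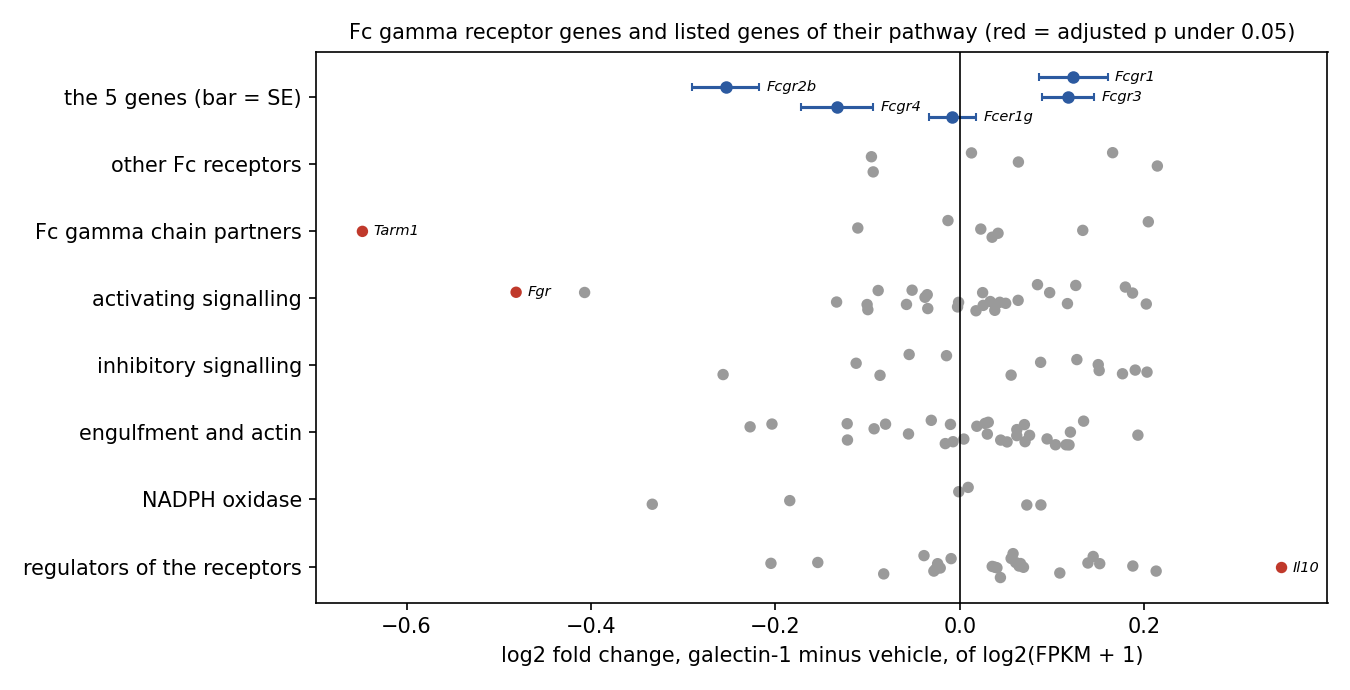
Log2 fold change (galectin-1 minus vehicle, horizontal axis) of the 5 genes with standard errors and of the tested genes of the 7 pathway lists (1 point per gene, red where the limma adjusted p was under 0.05). Fcgr2b and Fcgr4 lay left of 0, Fcgr1 and Fcgr3 right of it, and Tarm1, Fgr and Il10 were the listed genes that passed.

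Genes that lie beside the 5 did not share 1 direction. Within 100 kb of a member RefSeq lists 83 other genes, many of them transfer RNAs, and 15 were tested. None passed in limma and 4 of 15 had an unadjusted p under 0.05, beside 23.2% of all tested genes, and 10 of 15 differences were positive with a median of 0.07. Adamts4, a matrix protease gene beside Fcer1g, had 16.0 and 18.5 FPKM with vehicle and 23.0 and 24.2 FPKM with galectin-1 (log2 difference 0.43, limma adjusted p = 0.0614). The others of these 4 were Cfap126, near Fcgr3, with a log2 difference of 0.36 (limma adjusted p = 0.171), Dusp12, on the far side of Fcgr2b, with -0.29 (0.196), and Ufc1, near Fcer1g, with 0.09 (0.208).

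**Figure D4:**
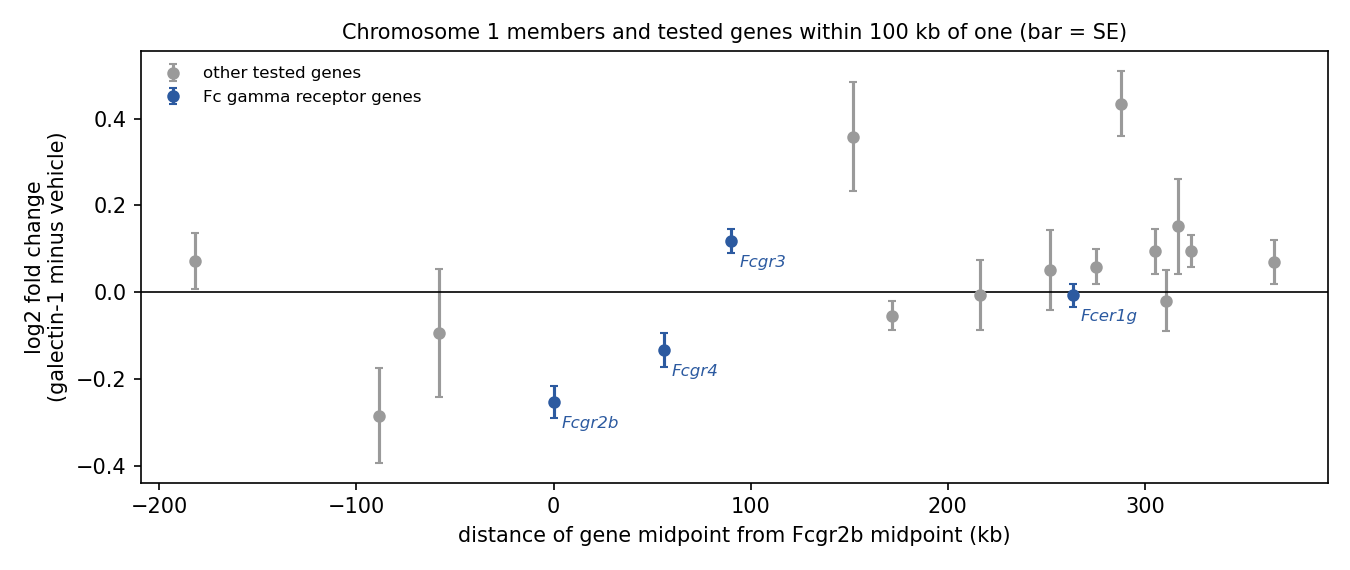
Log2 fold change (galectin-1 minus vehicle, vertical axis, bars are standard errors) against the distance of each gene's midpoint from that of Fcgr2b in kb, for the chromosome 1 members (blue) and tested genes within 100 kb of one (grey). Fcgr2b (-0.25) and Fcgr4 (-0.13) lay below 0 and Fcgr3 (0.12), the next gene of the family, above it.

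The genes whose pattern over the 4 libraries was nearest to each member were found by the distance between centred log2 values, as a description over 4 libraries. Nearest to Fcgr2b were Rad50 (distance 0.0126) and Zfp949 (0.0133), and nearest to Fcgr4 were Golga3 (0.00946) and D8Ertd82e (0.0101). For Fcgr1 they were Herc1 (0.00992) and Crkl (0.0102), for Fcgr3 Khsrp (0.00936) and Nsa2 (0.0102), and for Fcer1g the nearest was Zfp865 (0.00172). Many genes have like patterns over so few libraries.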

How the data were processed

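The authors deposited FPKM values, 1 per gene symbol and library. Per the submitters' processing notes, the tools were Cufflinks 2.2.1, SAMtools 0.1.19, Bowtie2 2.2.3 and TopHat2 2.0.13, on mm10, with no role stated. The sources used here do not give the annotation, read filters, use of strand or scaling between libraries. Libraries were stranded and poly(A)-selected, per the labels' protocols.

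Values were used as log2(FPKM + 1), a scale that understates changes of low genes. The 9380 genes whose mean reached 1 FPKM were fitted with limma 3.58.1 in R 4.3.3. The fit used empirical Bayes with trend and 2 residual degrees of freedom. Tests were 2-sided, with calls at a Benjamini-Hochberg adjusted p under 0.05. The fit was also run on simulated data with normal noise at its own spreads, which cannot show how stable the calls are. Galectin-1 against vehicle was the only comparison. A permutation test of 2 against 2 cannot go below 0.333 and was not used. Library totals were 541138 to 557661 FPKM. The steps of low values gave depths of 0.872 to 1.03 relative to vehicle replicate 1; absolute depth is unknown, so no counting interval is given. The members, gene lists and tests were chosen with earlier results of these data known. Named pathway genes were the 4 of smallest p in lists with a call and the 2 of smallest p in others. Promoter windows came from RefSeq (all 5 genes matched) and transcripts from GENCODE M21. Alternatives tried were a pseudocount of 0.1, no filter or a minimum of 5 FPKM, rescaling to TPM, quantile normalization, no trend, leaving out small RNA entries, a replicate block and leaving out each library. A neighbouring gene, a gene of like pattern and a further promoter motif are not reported here.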

Additional observations from a re-analysis of the deposited data

How the results depend on the processing

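Fcgr1, Fcgr2b, Fcgr3 and Fcgr4 had log2 differences of 0.08 to 0.17, -0.29 to -0.22, 0.07 to 0.13 and -0.18 to -0.09 over the 12 alternatives. Rescaling to TPM and quantile normalization were the alternatives that could have turned a sign, and neither did. The filters, the trend, the small RNA entries and the block leave the difference as it is, the pseudocount hardly bears on such levels, and leaving out a library cannot turn the sign of groups that do not overlap. The log2 difference of the activating to inhibitory ratio was 0.28 after quantile normalization. The limma adjusted p of Fcgr2b, given as a description because the gene was chosen with this comparison known, was under 0.05 in 5 of the 12 and not after rescaling to TPM (0.0580), without a filter (0.137) or without the trend (0.143). The count of genes called in limma, 112 with the settings of the report, was 3 without a filter, 226 at a mean of at least 5 FPKM, 52 after rescaling to TPM (19 higher and 33 lower), 71 after quantile normalization (24 higher and 47 lower), 2 without the trend, 369 without small RNA entries and 12 to 16 when 1 library was left out. The 3 pathway calls became 0 without a filter, 7 at 5 FPKM, 2 after rescaling to TPM (0 higher and 2 lower), 0 without the trend, 11 without small RNA entries and 0 in each fit that left out 1 library. With the replicate number as a block, 240 genes and 5 pathway genes were called. The numbers were not shown to pair the libraries: deviations from the group means correlated by 0.0114 between same-numbered libraries. Fits without a library have fewer samples and the other filters another number of tested genes; for the rest the cause was not tested. Depth beyond its ratio is unknown, and 2 libraries per group limit every comparison.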
